A study of Mus musculus with 18 samples.

Results

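The genes described here encode extracellular proteases that cut the matrix around cells, their inhibitors and the cell surface receptor of 1 of them. They were taken by symbol from the gene count table of an RNA sequencing series and comprised 10 of its 24421 genes, namely Mmp3, Mmp9, Mmp10, Mmp13, Mmp14, Timp1, Timp2, Timp3, Plau and Plaur. Of these, 9 had enough counts to be tested, among 13507 tested genes, and Timp3 did not. The cells were 4T1, a mouse breast carcinoma line labelled BALB/cfC3H by strain, and the 2 populations 4T1R1 and 4T1R2, each derived independently from 4T1 cells that survived repeated exposure to the Hsp90 inhibitor 17-DMAG. Untreated cells and cells given 1.5 µM 17-DMAG were sequenced from all 3, which makes 6 groups of 3 libraries, and all groups carry the genotype label wild type and no other agent. The sample records give 48 h as the length of the treatment and the series description gives 2 h, so the time behind every drug response below is uncertain, and the 2 records also differ in how the selection was done. The resistant cells are populations of survivors, 1 per name, so a difference between 4T1R1 and 4T1R2 concerns these 2 selections only. This limit also holds for their differences from 4T1, since the libraries of a group are replicates of 1 population. The P-values below measure the spread between such libraries, not between separate selections.

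Matrix metalloproteinases (MMPs) are zinc-dependent enzymes that are mostly secreted as inactive precursors and become active when the propeptide is removed. Tissue inhibitors of metalloproteinases (TIMPs) bind the active enzymes, and urokinase, the product of Plau, turns plasminogen into plasmin while bound to its receptor, the product of Plaur. In tumours this system is known for opening basement membrane and interstitial collagen. A count measures transcript abundance only, not secretion or activation of the enzymes, and in a bulk sample a smaller share of expressing cells and less RNA per cell cannot be told apart.

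Total counts per library ranged from 23354461 to 55094630, and a normalized count is given below at the mean effective library size. Replicates 1 and 2 of treated 4T1 were more alike than any other pair, with a chi-square per gene of 1.1 where the 17 other within-group pairs gave 2.04 to 2.22. They differed by less than the other pairs did, so their mean was counted as 1 sample and treated 4T1 has n = 2. The identifiers of the 6 4T1R1 libraries form a run apart from those of the 12 other libraries, so a difference of 4T1R1 alone cannot be told apart from that. The 8 mammary carcinoma markers all passed the filter, with summed normalized counts of 77227 to 78348 in untreated 4T1, 51591 to 54152 in untreated 4T1R1 and 59734 to 60955 in untreated 4T1R2. Krt8, Krt18 and Krt7 made up most of these sums. Only Cdh1 had no lower mean in the resistant populations, at 11139, 11244 and 13476 in the same order, and Esrp1 had 389, 101 and 81.1. Of the 7 fibroblast markers, Dcn, Lum, Col3a1 and Thy1 had at most 3 counts in any library, while Pdgfra had means of 712 in untreated 4T1, 844 in 4T1R1 and 974 in 4T1R2 and made up nearly all of the list's sums of 677 to 751, 830 to 890 and 916 to 1034. The endothelial markers summed to at most 23.

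Mmp13, Mmp3 and Mmp10 lie in this order on the plus strand of the MMP gene cluster of chromosome 9 (GRCm38), at chr9:7272514-7283331, chr9:7445822-7455975 and chr9:7502352-7510240. Mmp13 encodes collagenase 3, and Mmp3 and Mmp10 encode the closely related stromelysins 1 and 2. Plaur is at chr7:24462484-24475968. The 120 bases before the RefSeq start of these genes (GRCm38.p6, plus strand) are shown because each of the 4 held the AP-1 motif, TGAGTCA or its reverse complement TGACTCA, in capitals. AP-1 is the family of Fos and Jun transcription factors.
Mmp13 (chr9:7272394-7272513): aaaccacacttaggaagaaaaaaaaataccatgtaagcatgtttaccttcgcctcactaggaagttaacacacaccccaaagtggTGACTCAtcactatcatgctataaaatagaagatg
Mmp3 (chr9:7445702-7445821): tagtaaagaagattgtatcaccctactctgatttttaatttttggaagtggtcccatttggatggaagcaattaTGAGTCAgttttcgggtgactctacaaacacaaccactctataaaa
Mmp10 (chr9:7502222-7502341): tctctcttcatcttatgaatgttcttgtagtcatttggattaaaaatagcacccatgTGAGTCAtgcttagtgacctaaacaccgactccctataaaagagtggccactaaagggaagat
Plaur (chr7:24462363-24462482): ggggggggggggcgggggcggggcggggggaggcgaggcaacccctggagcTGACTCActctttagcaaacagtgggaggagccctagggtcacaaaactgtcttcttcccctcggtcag

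The motif began 35 bases before the start of Mmp13, 46 before Mmp3, 63 before Mmp10 and 69 before Plaur. Promoter windows from 250 bases before to 50 after the start were at hand for 8 of the 10 genes, not for Mmp9 and Plau. Of these 8 windows 4 held the AP-1 motif on either strand, and 5.2% of all 32851 windows did. The TATAAA motif was in the windows of Mmp3, Mmp10 and Mmp13, and in 13.6% of all windows. The PEA3 motif AGGAAG, which ETS factors bind, was in 6 of the 8 and in 35.4% of all, the heat shock motif GAANNTTC was in 1, that of Mmp10, and in 7.86% of all, and the κB motif was in none of the 8 and in 4.51% of all. A match describes letters in the window, and no binding was measured.

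In untreated 4T1, Timp1 and Timp2 had the highest levels per kilobase, that is counts per kilobase of annotated exon scaled to library size as in RPKM, at 129 ± 3.57 and 106 ± 2.73 (SD, n = 3). Plau followed at 92.9 ± 1.93, then Mmp3 at 52.1 ± 3.26, Plaur at 43.7 ± 2.18, Mmp10 at 30.8 ± 1.91 and Mmp14 at 22.1 ± 0.72. Mmp9 and Mmp13 were lowest, at 9.32 ± 0.507 and 3.61 ± 0.696. Timp3, whose product stays bound to the matrix, had no count in 17 of 18 libraries and 2 counts in 1 untreated 4T1R2 library, where 3 counts correspond to 0.0545 to 0.128 CPM across the libraries. Timp3 overlaps the oppositely oriented Syn3, with as many as 1733 exon bases shared, and Syn3 had at most 113 counts in any library. Whether reads in the shared bases were left out of the Timp3 count was not tested. The level of Timp3 was thus not detectable in these counts, which does not show that the transcript was absent.

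Both resistant populations differed from 4T1 in every tested member without treatment. Against untreated 4T1, 9 of 9 members passed the test in 4T1R1, 3 higher and 6 lower, where 52.7% of all tested genes were called (25.2% higher and 27.5% lower). In 4T1R2 the count was again 9 of 9, with 3 higher and 6 lower, against 52.4% of all genes (25.6% higher and 26.9% lower). The test is edgeR's quasi-likelihood test with Benjamini-Hochberg adjusted P-values over all tested genes. The members' median log2FC stood at -0.15 in 4T1R1 and -0.48 in 4T1R2, beside 0.0075 and 0.0068 over all tested genes. Both comparisons share the untreated 4T1 libraries.

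**Figure D1:**
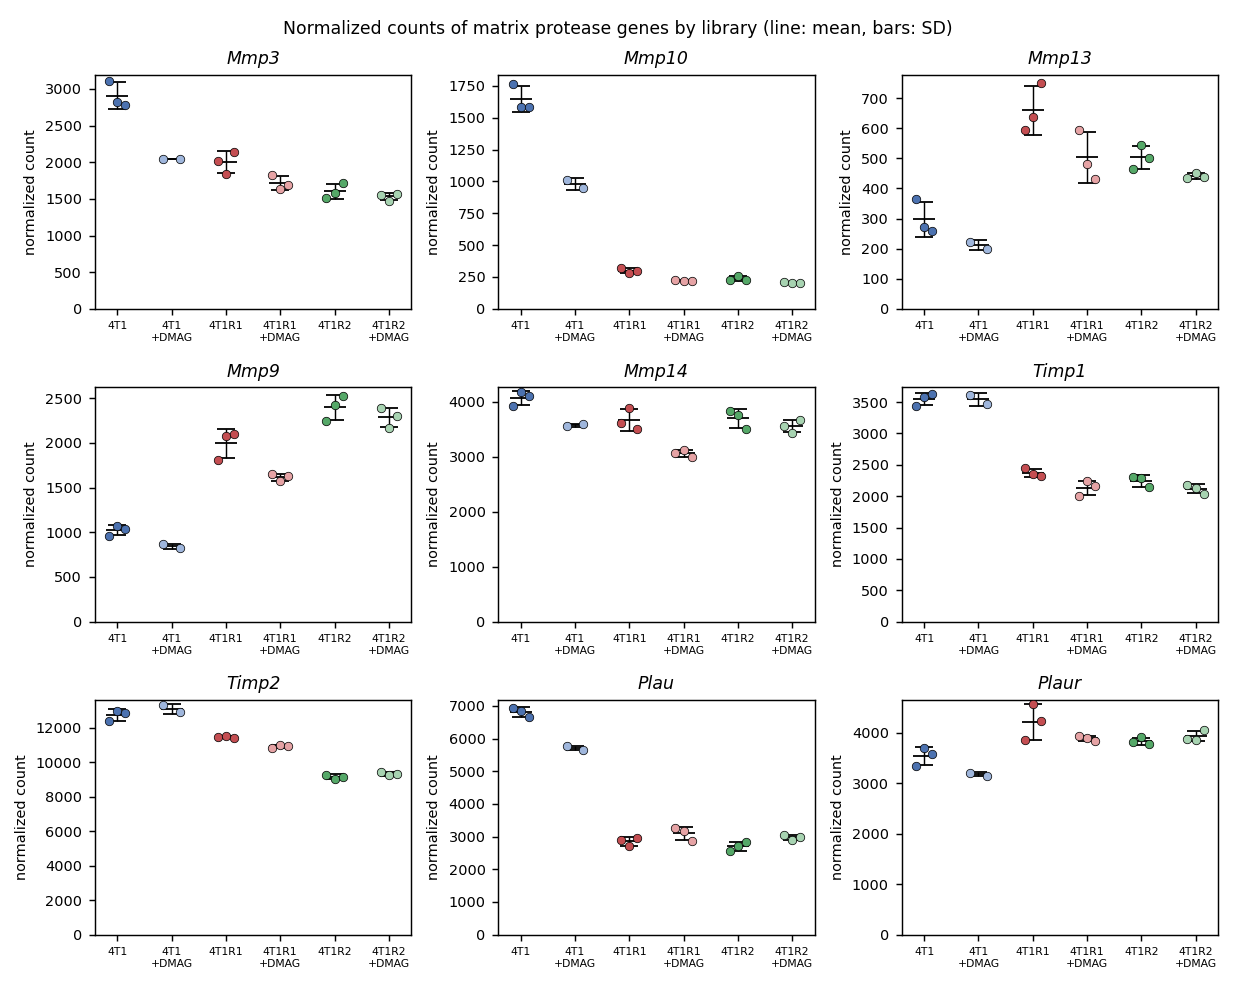
Normalized counts (y axis, linear from 0) of the 9 tested genes in each library of the 6 groups, where +DMAG marks 17-DMAG treatment, points are libraries, the horizontal line is the group mean and the bars are the SD. Mmp10 sits between 1582 and 1761 in untreated 4T1 and at 320 or below in every library of 4T1R1 and 4T1R2.

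Mmp10 showed the largest change among the members. Its normalized counts were 1761, 1587 and 1582 in untreated 4T1, 320, 281 and 297 in untreated 4T1R1, and 223, 258 and 225 in untreated 4T1R2. The groups did not overlap. It fell 5.49-fold in 4T1R1 (log2FC -2.46, SE 0.0733, adjusted P-value 4.61e-28) and 7.01-fold in 4T1R2 (log2FC -2.81, SE 0.0776, adjusted P-value 3.29e-29). Mmp10 levels in the order of the 6 groups ran from untreated 4T1 (mean 1643) through treated 4T1 (980) and untreated 4T1R1 (299) to treated 4T1R2 (205).

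Mmp3, the neighbouring stromelysin, fell much less. It had 3115, 2827 and 2778 normalized counts in untreated 4T1, 2020, 1841 and 2136 in untreated 4T1R1, and 1516, 1578 and 1710 in untreated 4T1R2. All 3 groups were apart, with 4T1 highest. The decrease was 1.45-fold in 4T1R1 (log2FC -0.54, SE 0.0512, adjusted P-value 7.65e-12) and 1.82-fold in 4T1R2 (log2FC -0.86, SE 0.0529, adjusted P-value 1.64e-17). Treated 4T1 and untreated 4T1R1 overlapped in Mmp3, with means of 2041 and 1999.

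Mmp13, on the other side of the same cluster, went the other way. Untreated 4T1 gave 365, 271 and 259 normalized counts, 4T1R1 gave 593, 637 and 751, and 4T1R2 gave 466, 543 and 503. Every library of both resistant populations was above every untreated 4T1 library. Mmp13 rose 2.22-fold in 4T1R1 (log2FC 1.15, SE 0.107, adjusted P-value 5.07e-12) and 1.68-fold in 4T1R2 (log2FC 0.75, SE 0.112, adjusted P-value 2.88e-07). Among the other genes of the cluster, Mmp8, Mmp20 and Mmp7 had no count in any library, Mmp27 had at most 2 and Mmp12 at most 14. Mmp1a reached 63 counts and Mmp1b 141, and whether these paralogs shared reads was not tested.

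Mmp9 encodes gelatinase B, which cuts denatured collagen and collagen IV of basement membranes, and lies at chr2:164940780-164955850. Its normalized counts were 961, 1071 and 1032 in untreated 4T1, 1811, 2073 and 2102 in untreated 4T1R1, and 2247, 2422 and 2519 in untreated 4T1R2. The groups rose in that order without overlap. The increase was 1.95-fold in 4T1R1 (log2FC 0.97, SE 0.0558, adjusted P-value 2.49e-18) and 2.34-fold in 4T1R2 (log2FC 1.23, SE 0.0558, adjusted P-value 8.57e-22). Since leukocytes are a known source of Mmp9, the leukocyte markers are given beside it. Their 7 genes summed to 388 to 449 normalized counts in untreated 4T1, 753 to 853 in 4T1R1 and 906 to 977 in 4T1R2, almost all from Cd14 and Cd68. Among the low markers, mean normalized counts in the same order were 10.3, 14.1 and 30.6 for Csf1r and 0, 6.39 and 6.5 for Itgam, higher in the resistant cells like Mmp9, whereas they were 14.9, 5.85 and 10.2 for the pan-leukocyte gene Ptprc, 0, 4.55 and 0.78 for Lyz2 and 0 in all 3 groups for Adgre1. The part of this list in the Mmp9 result was not tested.

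Mmp14 encodes a membrane-anchored MMP that activates other MMPs at the cell surface and lies at chr14:54431612-54445364. It had 3925, 4182 and 4109 normalized counts in untreated 4T1, 3617, 3894 and 3510 in untreated 4T1R1, and 3842, 3755 and 3512 in untreated 4T1R2. The resistant libraries lay just below those of 4T1. The decrease was 1.11-fold in 4T1R1 (log2FC -0.15, SE 0.0393, adjusted P-value 0.00145) and 1.1-fold in 4T1R2 (log2FC -0.14, SE 0.0396, adjusted P-value 0.00366), and without untreated 4T1R2 replicate 3 the latter was no longer called (log2FC -0.098, adjusted P-value 0.0576).

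Both expressed inhibitors fell as well. Timp1 (chrX:20870166-20874735, inside the oppositely oriented Syn1, with which it shares no exon base) had 3439, 3588 and 3624 normalized counts in untreated 4T1, 2448, 2353 and 2327 in 4T1R1, and 2305, 2295 and 2140 in 4T1R2. It fell 1.49-fold in 4T1R1 (log2FC -0.58, SE 0.0419, adjusted P-value 2.82e-15) and 1.58-fold in 4T1R2 (log2FC -0.66, SE 0.0425, adjusted P-value 7.97e-17). Timp1 inhibits most secreted MMPs and binds the precursor of Mmp9. Timp2 (chr11:118301069-118355740, minus strand), which with Mmp14 takes part in the activation of another gelatinase, had 12373, 12999 and 12861 normalized counts in untreated 4T1, 11466, 11503 and 11392 in 4T1R1, and 9293, 9018 and 9169 in 4T1R2. The 3 groups were apart in that order. Timp2 fell 1.11-fold in 4T1R1 (log2FC -0.15, SE 0.0267, adjusted P-value 5.03e-06) and 1.39-fold in 4T1R2 (log2FC -0.48, SE 0.027, adjusted P-value 1.34e-18).

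Urokinase and its receptor moved in opposite directions. Plau (chr14:20836660-20843385) had 6931, 6847 and 6655 normalized counts in untreated 4T1, 2882, 2710 and 2961 in 4T1R1, and 2566, 2723 and 2837 in 4T1R2. The lowest 4T1 library held more than double the highest resistant one. Plau fell 2.39-fold in 4T1R1 (log2FC -1.26, SE 0.0405, adjusted P-value 7.23e-27) and 2.52-fold in 4T1R2 (log2FC -1.33, SE 0.0412, adjusted P-value 1.54e-27). Plaur had 3346, 3691 and 3580 normalized counts in untreated 4T1, 3853, 4562 and 4236 in 4T1R1, and 3820, 3906 and 3767 in 4T1R2. The resistant libraries were all above those of 4T1 by a small margin. Plaur rose 1.19-fold in 4T1R1 (log2FC 0.25, SE 0.0421, adjusted P-value 2.56e-06) and 1.08-fold in 4T1R2 (log2FC 0.11, SE 0.0426, adjusted P-value 0.0227). The call in 4T1R2 was lost without untreated 4T1 replicate 1 (log2FC 0.075, adjusted P-value 0.172) or untreated 4T1R2 replicate 2 (log2FC 0.10, adjusted P-value 0.0841).

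**Figure D2:**
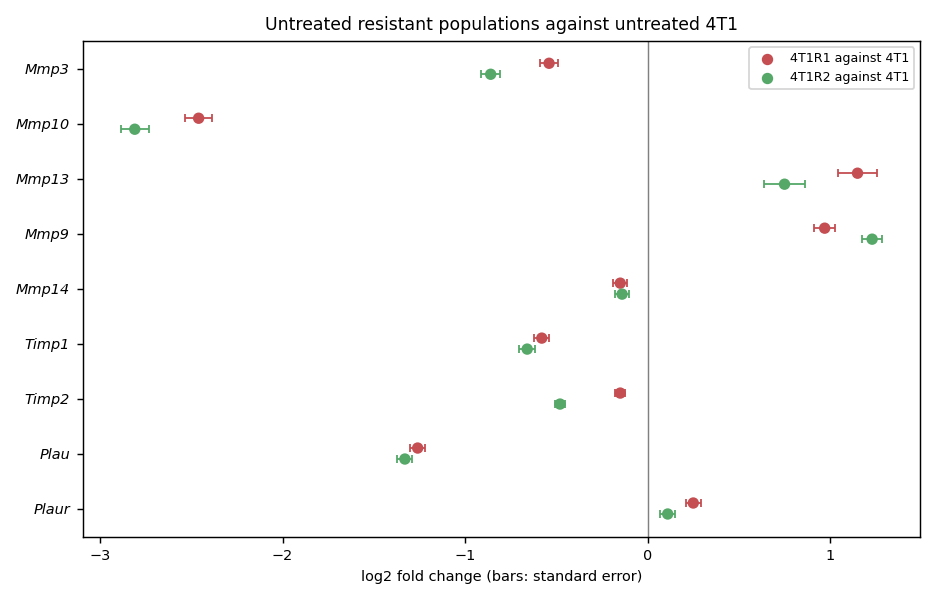
The log2FC (x axis, bars are the standard error) of the 9 tested genes in untreated 4T1R1 and untreated 4T1R2 against untreated 4T1. Mmp10 and Plau are farthest to the left in both populations, and Mmp9, Mmp13 and Plaur are the genes to the right of 0.

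The 2 resistant populations were also compared with each other without treatment. Of the 9 members 6 passed the test, 1 higher and 5 lower in 4T1R2, against 38.8% of all tested genes (19.7% higher and 19.0% lower), and their median log2FC was -0.14 beside -0.0079 for all genes. Mmp9 was the gene that was higher in 4T1R2 (log2FC 0.26, SE 0.0522, adjusted P-value 8.18e-05). Mmp13 (log2FC -0.40), Mmp10 (-0.35), Mmp3 (-0.32) and Timp2 (-0.32) had the reverse direction and adjusted P-values of 0.00175, 0.00153, 5.34e-06 and 8.16e-13. Plaur was lower as well (log2FC -0.14, adjusted P-value 0.00783), but its libraries overlapped and the call was lost without untreated 4T1R1 replicate 2 (log2FC -0.079, adjusted P-value 0.131). Plau, Timp1 and Mmp14 were not called. Their differences had 95% intervals on the log2 scale of -0.16 to 0.0073 for Plau, -0.17 to 0.005 for Timp1 and -0.065 to 0.091 for Mmp14.

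17-DMAG lowered most members in 4T1. In these cells 7 of 9 passed the test and all 7 were lower, against 36.4% of all tested genes called and 17.9% lower, and the median log2FC of the members was -0.25 beside 0.00064 for all genes. Scaling by total counts alone moved the median of all genes to -0.11 in this comparison and the calls from 2490 higher and 2423 lower to 1193 higher and 4322 lower. That scaling lowers the values of the members too. The untreated 4T1 libraries are those of the comparison with the resistant populations.

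The strongest decrease was again in Mmp10. Normalized counts fell from 1761, 1587 and 1582 without the drug to 1014 and 946 with it (log2FC -0.74, SE 0.073, adjusted P-value 3.83e-11). Mmp3 went from 3115, 2827 and 2778 to 2040 and 2041 (log2FC -0.51, SE 0.0575, adjusted P-value 1.28e-09). Mmp13 went from 365, 271 and 259 to 223 and 199 (log2FC -0.49, SE 0.136, adjusted P-value 0.00351). Treated and untreated libraries did not overlap in any of these genes of the chromosome 9 cluster, although the Mmp13 call was lost without untreated 4T1 replicate 1 (log2FC -0.32, adjusted P-value 0.0648) or treated replicate 3 (log2FC -0.42, adjusted P-value 0.0609).

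The other called members of 4T1 changed less. Mmp9 had 864 and 825 normalized counts after treatment (log2FC -0.27, SE 0.0673, adjusted P-value 0.00123), Plau had 5765 and 5662 (log2FC -0.25, SE 0.0435, adjusted P-value 8.09e-06), and Mmp14 had 3560 and 3593 (log2FC -0.19, SE 0.044, adjusted P-value 0.000685). Plaur had 3201 and 3146 (log2FC -0.16, SE 0.0477, adjusted P-value 0.00819), and its call was lost without untreated 4T1 replicate 2 (adjusted P-value 0.0523) or treated replicate 3 (adjusted P-value 0.0719). The inhibitors were not called. Timp1 had 3620 and 3469 after treatment (log2FC -0.0014, 95% interval -0.091 to 0.088) and Timp2 had 13304 and 12903 (log2FC 0.04, 95% interval -0.018 to 0.098), in both cases overlapping the untreated libraries. With total counts alone Timp1 was called lower in 4T1 (log2FC -0.12, adjusted P-value 0.0415).

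In 4T1R1 the drug lowered the MMPs too, and Plau moved up. Here 8 of 9 members passed, 7 lower and 1 higher, against 28.2% of all tested genes (14.3% lower and 13.9% higher), with a median log2FC of -0.22 beside -0.0086. Without treated 4T1R1 replicate 1, 5 members remained called. Mmp10 went to 223, 220 and 215 normalized counts (log2FC -0.45, SE 0.0892, adjusted P-value 0.000156), Mmp9 to 1649, 1574 and 1628 (log2FC -0.30, SE 0.0534, adjusted P-value 2.65e-05) and Mmp14 to 3075, 3125 and 2991 (log2FC -0.26, SE 0.04, adjusted P-value 2.62e-06). Every treated library was below the untreated ones in these 3 genes. Mmp3 went to 1824, 1640 and 1688 (log2FC -0.22, SE 0.0531, adjusted P-value 0.00153), and Mmp13 to 596, 482 and 432 with overlap (log2FC -0.39, SE 0.101, adjusted P-value 0.00303).

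Among the inhibitors of 4T1R1, Timp1 fell to 2004, 2236 and 2155 (log2FC -0.16, SE 0.0433, adjusted P-value 0.00497), a call that was lost without treated replicate 1 (log2FC -0.11, adjusted P-value 0.0764). Timp2 just missed the threshold (log2FC -0.068, adjusted P-value 0.0535), and DESeq2 called it (adjusted P-value 0.0243). Plau rose to 3250, 3175 and 2877 (log2FC 0.12, SE 0.0419, adjusted P-value 0.0263) and Plaur fell to 3936, 3889 and 3843 (log2FC -0.12, SE 0.0419, adjusted P-value 0.034). Both overlapped the untreated libraries and were fragile. The Plau call was lost without untreated replicate 2 or treated replicates 1 or 2 (log2FC 0.087, 0.086 and 0.10, adjusted P-values 0.155, 0.195 and 0.106). The Plaur call was lost without any of 5 libraries, untreated replicates 2 and 3 and the 3 treated ones, with adjusted P-values from 0.057 to 0.357.

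In 4T1R2 only Plau passed the test, that is 1 of 9 members, against 10.5% of all tested genes (6.18% higher and 4.35% lower), with a median log2FC of -0.062 beside -0.0019. Plau rose from 2566, 2723 and 2837 to 3054, 2893 and 2988 (log2FC 0.14, SE 0.0423, adjusted P-value 0.0273). The call was lost without untreated 4T1R2 replicates 1 or 2 or treated replicates 1 or 3, with log2FC from 0.098 to 0.14 and adjusted P-values from 0.0576 to 0.218, and under scaling by total counts (log2FC 0.091, adjusted P-value 0.186). Mmp10 had 210, 205 and 199 after treatment and Mmp13 had 434, 452 and 438, all below the untreated libraries of the same gene. Neither was called, with log2FC of -0.19 for both and adjusted P-values of 0.202 for Mmp10 and 0.296 for Mmp13. The 95% interval for Mmp10 was -0.38 to -0.011 before adjustment. For the uncalled members other than Mmp10 the 95% intervals of the log2FC were -0.17 to 0.045 for Mmp3, -0.17 to 0.034 for Mmp9, -0.39 to 0.02 for Mmp13, -0.14 to 0.019 for Mmp14, -0.17 to -0.00055 for Timp1 before adjustment, -0.026 to 0.08 for Timp2 and -0.044 to 0.12 for Plaur. With total counts alone Timp1 was called lower here as well (log2FC -0.13, adjusted P-value 0.0462).

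**Figure D3:**
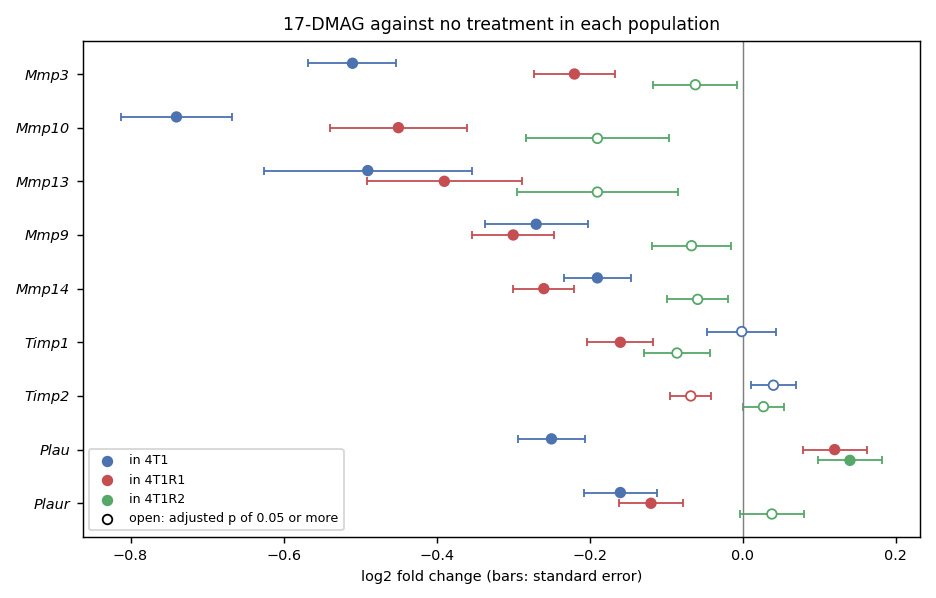
The log2FC of 17-DMAG against no treatment (x axis, bars are the standard error) in 4T1, 4T1R1 and 4T1R2 for the 9 tested genes, with open symbols where the adjusted P-value was 0.05 or more. Plau lies left of 0 in 4T1 (-0.25) and right of 0 in 4T1R1 (0.12) and 4T1R2 (0.14).

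The difference between these responses was tested itself, as an interaction term. Between 4T1R1 and 4T1, 2 of 9 members differed, against 18.2% of all tested genes (9.16% higher and 9.08% lower). They were Plau (difference of 0.37 in log2FC, SE 0.0604, adjusted P-value 9.84e-06) and Mmp3 (0.29, SE 0.078, adjusted P-value 0.00606), and the number of members was 4 or 5 with the 4T1 replicates 1 and 2 kept separate. Mmp10 was near the threshold (0.30, 95% interval 0.071 to 0.52 before adjustment, adjusted P-value 0.0684). It was called with total counts alone (adjusted P-value 0.00318) and in 2 of the 18 fits that left out 1 library. Between 4T1R2 and 4T1, 4 of 9 differed, against 17.8% of all tested genes, all with a higher value in 4T1R2 (9.62% of all genes were higher and 8.16% lower). These were Mmp10 (0.55, SE 0.118, adjusted P-value 0.000632), Mmp3 (0.45, SE 0.0792, adjusted P-value 3.78e-05), Plau (0.39, SE 0.0607, adjusted P-value 4.05e-06) and Plaur (0.19, SE 0.0637, adjusted P-value 0.0272). Mmp10, Mmp3 and Plaur fell in 4T1 and were not called in 4T1R2 (log2FC -0.19, -0.062 and 0.038), and Plau fell in 4T1 and rose in 4T1R2. The Plaur difference was lost without any of 5 libraries, untreated 4T1 replicates 2 and 3, treated 4T1 replicate 3, and untreated and treated 4T1R2 replicate 3, with adjusted P-values from 0.0551 to 0.0996.

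Between 4T1R2 and 4T1R1 only Mmp14 was called, that is 1 of 9 against 2.13% of all tested genes (1.21% higher and 0.918% lower), with a difference of 0.20 (SE 0.0564, adjusted P-value 0.0451). It fell out under scaling by total counts (0.12, adjusted P-value 0.221), with only the groups compared (adjusted P-value 0.0644), and without any of 8 libraries (0.16 to 0.21, adjusted P-values 0.0562 to 0.153), which were untreated 4T1 replicate 3, 4T1R1 untreated replicate 2 and treated replicates 1 and 3, and 4T1R2 untreated replicates 2 and 3 and treated replicates 1 and 3. Uncalled differences of similar size were those of Mmp9 (0.24, 95% interval 0.09 to 0.38 before adjustment), Mmp10 (0.25, -0.0011 to 0.51) and Mmp13 (0.20, -0.084 to 0.49). Their adjusted P-values were 0.084, 0.348 and 0.543. Mmp9 was called without the filter (adjusted P-value 0.0253) and in 2 of the 18 fits that left out 1 library. All 3 interaction comparisons share libraries with each other. Scaling by total counts changed their all-gene splits, from 1237 higher and 1227 lower to 3536 and 419 between 4T1R1 and 4T1, from 1299 and 1102 to 2091 and 632 between 4T1R2 and 4T1, and from 164 and 124 to 61 and 611 between 4T1R2 and 4T1R1, with all-gene medians of 0.15, 0.068 and -0.075.

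The makeup of the MMP transcripts differed between the populations more than their sum did. Summed levels of the 5 MMP members per kilobase (RPKM scale) were 118 ± 4.76 in untreated 4T1 (n = 3), 87.5 ± 3.13 in 4T1R1 and 81.1 ± 2.47 in 4T1R2. Within that sum, Mmp10 took 26.1% ± 0.598 in 4T1, 6.41% ± 0.516 in 4T1R1 and 5.44% ± 0.417 in 4T1R2. The share of Mmp9 was 7.92% ± 0.704, 20.8% ± 1.35 and 26.9% ± 0.766 in the same order, and that of Mmp13 was 3.05% ± 0.458, 9.1% ± 0.797 and 7.5% ± 0.423. Accordingly there were 0.304 ± 0.0335 Mmp9 transcripts per Mmp10 transcript in 4T1, 3.27 ± 0.446 in 4T1R1 and 4.97 ± 0.453 in 4T1R2, per kilobase. Mmp3 stayed the largest share in every group, from 35.4% to 44.2%.

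The sum of Timp1 and Timp2 fell alongside, from 235 ± 6.18 in untreated 4T1 to 181 ± 2.53 in 4T1R1 and 158 ± 3.54 in 4T1R2. The ratio of the summed MMPs to the summed TIMPs was therefore close in the untreated groups, 0.503 ± 0.0339, 0.483 ± 0.0232 and 0.515 ± 0.0264, and their libraries overlapped. With 17-DMAG the ratio was 0.356 ± 0.00425 in 4T1 (n = 2), 0.431 ± 0.0308 in 4T1R1 and 0.498 ± 0.0173 in 4T1R2. Treated and untreated libraries were apart in 4T1 and overlapped in 4T1R1, at 0.41 to 0.466 against 0.465 to 0.509, and in 4T1R2. The ratio of Plau to Plaur was 2.13 ± 0.137 in untreated 4T1, 0.752 ± 0.0869 in 4T1R1 and 0.782 ± 0.046 in 4T1R2, so that the ligand outnumbered the receptor per kilobase in 4T1 and not in the resistant populations. These ratios are of transcripts and are given as a description, with no test.

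**Figure D4:**
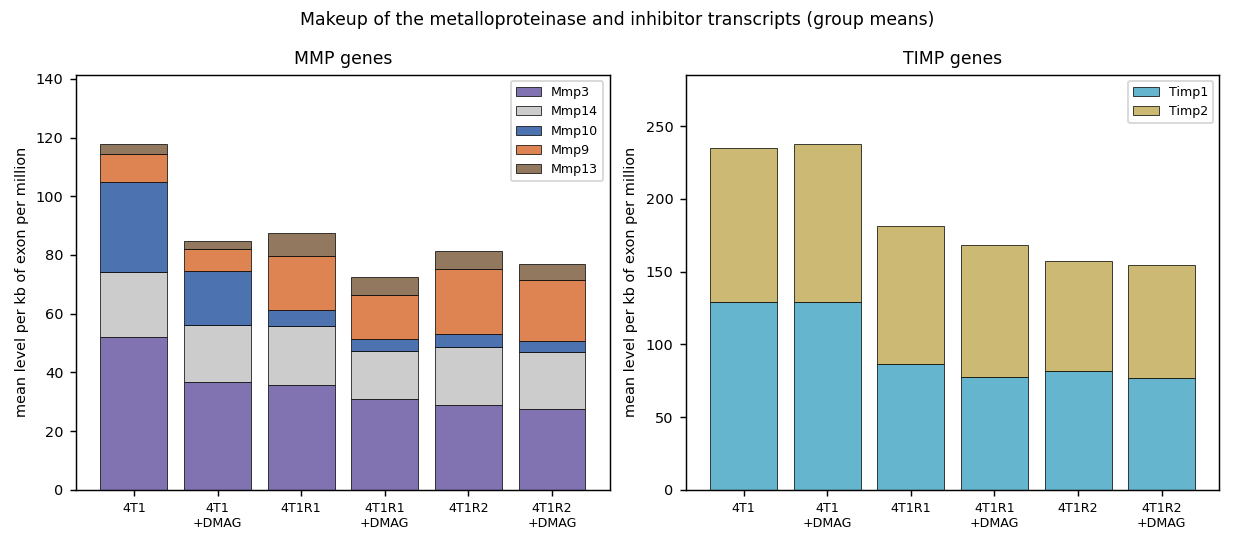
Mean level per kilobase of exon on the RPKM scale (y axis, linear from 0) of the MMP members (left, stacked) and of Timp1 and Timp2 (right, stacked) in the 6 groups, where +DMAG marks 17-DMAG treatment. The Mmp10 segment is 30.8 in untreated 4T1 and 5.61 or less in every resistant group, while the Mmp9 segment is 14.8 or more in every resistant group and 9.32 or less in 4T1.

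Across the 6 groups Mmp10 had the widest range of group means (7.99-fold), followed by Mmp13 (3.12-fold), Mmp9 (2.83-fold) and Plau (2.51-fold), and Mmp14 and Plaur the narrowest (1.33-fold each). For the first 3, the genes with the most similar pattern were sought among 10629 genes, by the root mean square difference of centred log2 group means over the 6 groups. Closest to Mmp10 were Esrp1 (0.215), an epithelial splicing factor, Siglec15 (0.25) and Adam19 (0.261), a membrane metalloproteinase. Closest to Mmp13 were Micall2 (0.0792), Acap1 (0.0841) and Abcc3 (0.0853), and closest to Mmp9 were Thbs3 (0.0437), a thrombospondin, Slc4a8 (0.0724) and Ogdhl (0.088). The difference is not scaled to the range of a gene. The larger values for Mmp10, which had the widest range, therefore cannot be compared with those of the other 2 members. These are descriptions over 6 groups that share their libraries.

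Related genes were counted in 7 lists, to be read beside the shares of all tested genes called in untreated 4T1R1 (25.2% higher and 27.5% lower) and 4T1R2 (25.6% higher and 26.9% lower). Of 18 other MMPs, 11 were tested, and 2 were higher and 2 lower in untreated 4T1R1, with a median log2FC of 0.13, and 3 higher and 4 lower in untreated 4T1R2, with a median of -0.51. Mmp11, stromelysin 3, had means of 322 ± 10.5 normalized counts in untreated 4T1 and 218 ± 14.6 in untreated 4T1R2 (log2FC -0.57, adjusted P-value 7.42e-06). Its mean in untreated 4T1R1, 352 ± 42.2, was not below that of 4T1, and 4T1R2 was lower than 4T1R1 (log2FC -0.69, adjusted P-value 2.84e-07). 17-DMAG raised Mmp11 in 4T1 to 442 ± 17.5 (n = 2, log2FC 0.46, adjusted P-value 0.000262), while Mmp1b fell from 103 ± 10.1 to 64.7 ± 16.6 (log2FC -0.65, adjusted P-value 0.0246).

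Of 14 other protease inhibitors, 10 were tested, and 4 were higher and 3 lower in untreated 4T1R1 (median log2FC -0.032) and 3 higher and 3 lower in untreated 4T1R2 (median -0.16). Serpine2, a serpin that inhibits urokinase, thrombin and plasmin, had 26.3 ± 1.46 normalized counts in untreated 4T1, 911 ± 34.6 in 4T1R1 and 563 ± 6.99 in 4T1R2, a 34.4-fold and a 21.3-fold rise (log2FC 5.11 and 4.41, adjusted P-values 6.6e-33 and 1.53e-29). It was thus high where Plau was low. Slpi, an inhibitor of leukocyte elastase, rose as well, from 2200 ± 149 to 3733 ± 92.4 and 4079 ± 109 (log2FC 0.76 and 0.89, adjusted P-values 7.49e-19 and 5.4e-21). Serpinb2, also a urokinase inhibitor, separated the resistant populations, with 144 ± 12.7 in 4T1R1 and 8.71 ± 4.83 in 4T1R2 (log2FC -4.04, adjusted P-value 4.74e-16). In 4T1, 17-DMAG raised Serpinb2 from 89.8 ± 8.63 to 231 ± 3.1 (log2FC 1.37, adjusted P-value 3.3e-08).

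Among genes of plasminogen and of protease activation 10 of 17 were tested, with 2 higher and 5 lower in untreated 4T1R1 (median log2FC -0.067) and 2 higher and 4 lower in untreated 4T1R2 (median -0.099). St14, which encodes matriptase, an activator of urokinase, rose from 2023 ± 86.9 in 4T1 to 3875 ± 131 and 4051 ± 86.9 (log2FC 0.94 and 1.00, adjusted P-values 8.67e-23 and 1.28e-23). Pcsk6, a proprotein convertase, fell from 366 ± 39.7 to 31.8 ± 7.43 and 14.3 ± 6.67 (log2FC -3.52 and -4.63, adjusted P-values 1.53e-19 and 4.78e-21). Furin, the convertase that activates Mmp14, fell with 17-DMAG in all 3 populations, with log2FC of -0.29 in 4T1 (adjusted P-value 3.27e-06), -0.38 in 4T1R1 (1.99e-09) and -0.19 in 4T1R2 (0.00155).

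The ADAM and ADAMTS proteases had 14 of 16 genes tested, with 3 higher and 6 lower in untreated 4T1R1 (median log2FC -0.17) and 3 higher and 10 lower in untreated 4T1R2 (median -0.51). Adam19 fell from 1752 ± 52 to 399 ± 21 and 297 ± 26.3 (log2FC -2.14 and -2.56, adjusted P-values 1.84e-27 and 3.08e-29), a size close to that of Mmp10. Adamts4, an aggrecanase, rose from 146 ± 15.3 to 344 ± 18 and 280 ± 32.7 (log2FC 1.24 and 0.95, adjusted P-values 1.03e-11 and 1.8e-08), and 17-DMAG lowered it 2-fold in 4T1 (SE of the log2FC 0.164, adjusted P-value 3.79e-06) and 1.72-fold in 4T1R1 (SE 0.114, adjusted P-value 1.02e-06), the 2 populations in which it lowered Mmp13. Of the 8 cathepsins, lysosomal proteases, 7 were tested, with 2 higher and 2 lower in untreated 4T1R1 (median log2FC -0.0053) and 4 higher and 2 lower in untreated 4T1R2 (median 0.15). Ctsh fell in both, from 2260 ± 105 to 1179 ± 34.5 and 1462 ± 44 (log2FC -0.94 and -0.63, adjusted P-values 7.43e-20 and 1.97e-14).

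Matrix proteins, the substrates, had 18 of 20 genes tested, with 8 higher and 8 lower in untreated 4T1R1 (median log2FC -0.15) and 3 higher and 12 lower in untreated 4T1R2 (median -0.29). Lamb3 and Lama3, chains of a laminin of the epithelial basement membrane, rose in both, Lamb3 with log2FC of 1.00 and 1.14 (adjusted P-values 1.08e-23 and 1.17e-25) and Lama3 with 0.69 and 1.42 (adjusted P-values 2.29e-09 and 9.13e-19). Spp1, osteopontin, fell in 4T1R1 from 36928 ± 2873 to 14239 ± 447 (log2FC -1.37, adjusted P-value 2.29e-29), and its level in 4T1R2, 20351 ± 874, was also below that of 4T1. Sparc fell in 4T1R2 from 5579 ± 132 to 2241 ± 13.5 (log2FC -1.32, adjusted P-value 6.13e-29), and its level in 4T1R1, 3533 ± 130, lay between them.

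Transcription factors known to act on promoters of these genes had calls in 1 direction only under the drug. All 15 were tested, and 17-DMAG lowered 12 in 4T1, 11 in 4T1R1 and 8 in 4T1R2 and raised none, where 17.9%, 14.3% and 4.35% of all tested genes were lower, with median log2FC of -0.34, -0.23 and -0.15, beside all-gene medians of 0.00064, -0.0086 and -0.0019. In 4T1, Fos fell from 725 ± 220 normalized counts to 37.5 ± 3.51 (n = 2, log2FC -4.29), Fosb from 2008 ± 391 to 347 ± 15.2 (log2FC -2.54) and Junb from 3296 ± 173 to 978 ± 54.1 (log2FC -1.76). In 4T1R1, the largest non-overlapping decreases were of Junb (log2FC -0.65), Jund (-0.49) and Fosl2 (-0.33), and in 4T1R2 of Fos (-0.86), Fosb (-0.38) and Jund (-0.35). Without treatment the list was mixed, with 7 higher and 3 lower in 4T1R1 and 8 higher and 2 lower in 4T1R2 (median log2FC 0.032 and 0.14). Fos was lower in 4T1R1 (log2FC -0.99) and higher in 4T1R2 (log2FC 0.84) than in 4T1, and Junb was higher in both (log2FC 0.88 and 0.83). Of the members whose windows hold the AP-1 motif, Mmp10 and Mmp3 were lower in both and Mmp13 and Plaur higher in both. Whether these factors have a part in the changes of the members was not tested.

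**Figure D5:**
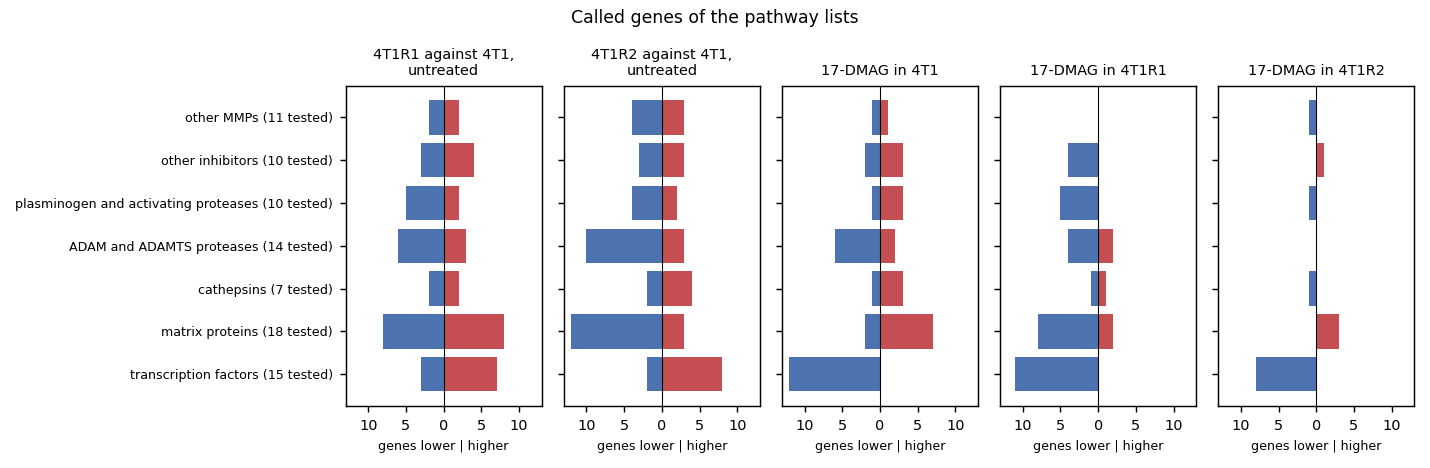
Number of genes called higher (bars to the right) and lower (bars to the left) in each of the 7 lists of related genes, with the number tested in brackets, in 5 comparisons given above each panel. The transcription factors have bars to the left only in the 3 panels of 17-DMAG treatment, with 12, 11 and 8 genes.

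The remaining lists were counted with 17-DMAG as well. In 4T1, where 18.4% of all tested genes were higher and 17.9% lower, the ADAM and ADAMTS list had 2 higher and 6 lower, the matrix proteins 7 higher and 2 lower, the other inhibitors 3 higher and 2 lower, the plasminogen and activating genes 3 higher and 1 lower, the cathepsins 3 higher and 1 lower and the other MMPs 1 higher and 1 lower. In 4T1R1, where 13.9% were higher and 14.3% lower, the plasminogen and activating genes had 0 higher and 5 lower of 10 tested, with a median log2FC of -0.13, and the other inhibitors 0 higher and 4 lower of 10, with a median of -0.1. The matrix proteins had 2 higher and 8 lower, the ADAM and ADAMTS list 2 higher and 4 lower, the cathepsins 1 higher and 1 lower and the other MMPs no call. In 4T1R2 no list other than the transcription factors had more than 3 calls.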

How the data were processed

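RNA of 18 libraries was sequenced after removal of ribosomal RNA. The deposited values are raw counts per gene symbol, made by the authors with STAR and featureCounts of Subread 1.6.2 on mm10 (GRCm38) after bcl2fastq 2.20, without normalization. Whether counting used strand is not given in the sources used here. Between 65.6% and 70.8% of the counts from 1 to 12 were even, which counting both mates of a pair would give. Whether both mates were counted was not tested. If they were, counting error exceeds that of independent reads. Rn45s took 9.54% to 15.6% of a library.

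Counts were tested in R 4.3.3 with edgeR 4.0.16 (filterByExpr, TMM, quasi-likelihood fit on 6 group means, Benjamini-Hochberg over 13507 genes, threshold 0.05), for 9 comparisons. Samples were 17, since treated 4T1 replicates 1 and 2 were averaged. Groups came from the sample titles. The records name biological replicates. Positions are from GENCODE M21 (23376 of 24421 symbols matched), and the exon length of a gene is the union of its annotated exons. Promoter windows are from RefSeq (GRCm38.p6, reference strain). Scripts were tested on simulated data. Figures used Python 3.11.15 with matplotlib 3.10.9.

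The members and lists were chosen with earlier results of these data known. All members are named. From each list of related genes, up to 3 per comparison could be named, namely called genes with the largest log2FC, no overlap of libraries and a higher group averaging 100 normalized counts or more. Similar genes were sought for the 3 members with the widest range, among genes with a mean of at least 100 in some group. The 9 alternatives were DESeq2 1.42.0, RLE scaling, scaling by library totals, testing all genes, requiring 10 counts in each library, only the groups compared, 18 separate libraries without or with a replicate block, and no Rn45s. Each of the 18 libraries was also left out in turn.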

Additional observations from a re-analysis of the deposited data

Results flagged for a closer look

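Differences between populations in the response to 17-DMAG, as tested by the interaction term of the edgeR fit, drew attention to 7 results. The response of Mmp3 differed from that in 4T1 by 0.29 in 4T1R1 and by 0.45 in 4T1R2 on the log2 scale, with the smaller decrease in the resistant cells. That of Plau differed by 0.37 in 4T1R1 and 0.39 in 4T1R2, with a decrease in 4T1 and a small increase in both resistant populations. The increases lost their calls in 3 (4T1R1) and 4 (4T1R2) of the 18 fits that left out 1 library. Both differences from 4T1 stayed called in all 18. The response of Mmp10 differed between 4T1R2 and 4T1 by 0.55 and that of Plaur by 0.19. The response of Mmp14 differed between 4T1R2 and 4T1R1 by 0.20, the difference that depended most on single libraries. Groups of 3 libraries were too small for a test of single outlying libraries.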

How the results depend on the processing

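Of the member values under the 9 other settings, 696 kept direction and side of the threshold, 5 lost the call, 16 gained one and 12 changed sign. With 1 library left out, 1396 kept both, 34 lost the call, 12 gained one and 16 changed sign. All sign changes were in values that were not called. With total counts alone they were, for the difference between responses of 4T1R1 and 4T1, Mmp14 0.076, Mmp9 0.12 and Timp2 0.041, for 4T1R2 and 4T1 Timp2 0.056, for 4T1R2 and 4T1R1 Plau -0.063 and Timp1 -0.0079, and for the drug response Timp2 -0.076 in 4T1, and Timp2 -0.019 and Plaur -0.0084 in 4T1R2. Timp1 in 4T1 was 5.8e-06 without the filter, 0.011 with 18 separate libraries and 0.01 with the replicate block added. That scaling also moved the split of drug calls in 4T1R1 from 1874 higher and 1938 lower to 2356 and 1316, and in 4T1R2 from 835 and 588 to 365 and 1146.

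Of the counts of genes called, that for the difference between 4T1R1 and 4T1 was 3955 with total counts against 2464, and that between 4T1R2 and 4T1R1 was 672 with total counts and 449 without the filter against 288. Members called between 4T1R1 and 4T1 were 4 with total counts, 5 with 18 separate libraries and 4 with the replicate block, against 2. Between 4T1R2 and 4T1R1 they were 0 with total counts, 2 without the filter and 0 with only the groups compared, against 1. The causes were not tested.

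Leaving out 1 library gave, for the difference between 4T1R1 and 4T1, -0.064 to 0.21 for Mmp13, -0.097 to 0.0094 for Mmp9 and -0.02 to 0.10 for Plaur, for 4T1R2 and 4T1 -0.028 to 0.0076 for Timp2, for 4T1R2 and 4T1R1 -0.034 to 0.055 for Plau, for untreated 4T1R2 against 4T1R1 -0.02 to 0.056 for Mmp14, and for the drug in 4T1 -0.024 to 0.024 for Timp1. Genes called ranged from 929 to 1624 for the drug in 4T1R2 (lowest without treated 4T1R2 replicate 1), and for the differences from 1585 to 2529 (4T1R1 and 4T1) and 1565 to 2647 (4T1R2 and 4T1), both lowest without treated 4T1 replicate 3, and 155 to 403 (4T1R2 and 4T1R1, lowest without treated 4T1R2 replicate 3). Members called ranged from 5 to 9 for the drug in 4T1R1, 0 to 1 in 4T1R2, 2 to 4 for 4T1R1 and 4T1, and 0 to 3 for 4T1R2 and 4T1R1.

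Same-numbered replicates did not deviate together (correlations -0.048 to 0.0952, none over 0.1), so the numbers were not taken as pairs. With the replicate block, the drug in 4T1 gave 5542 called genes against 5591 for the same 18 libraries without it. Folds near 1.1 rest on few libraries.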
